A study of Mus musculus with 44 samples.

Results

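The 928 sites described here are PCGF1 peaks that lay on RING1B peaks and outside H3K27me3 regions in cultured mouse haematopoietic progenitors, 36.1% of the 2569 PCGF1 peaks listed (exact binomial 95% interval 34.3 to 38.0%). They were selected on the listed positions alone: overlap with RING1B of 1 bp or more, and none with H3K27me3. Those overlaps are therefore given below as a description with no test. Of the other PCGF1 peaks, 1007 lay on both RING1B and H3K27me3, 288 on H3K27me3 alone and 346 on neither.

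Chromatin immunoprecipitation with sequencing (ChIP-seq) was carried out on IdHP cells, haematopoietic progenitors derived from bone marrow of the strain B6CBAF1/J and used at passages 15 to 18. They were grown on TSt4 stroma cells with IL7, SCF and Flt3L, and fixed with 1% formaldehyde for 10 min. PCGF1 was mapped with an antibody to FLAG in Pcgf1 -/- cells that re-expressed FLAG-PCGF1, whereas RING1B and H3K27me3 were mapped in Pcgf1 fl/fl cells. The PCGF1 list thus comes from another cell population than the RING1B and H3K27me3 lists, and the level of FLAG-PCGF1 against that of the normal protein is not given in the labels. Each peak list stands for 2 libraries of one group and holds 1 set of values, so no spread between libraries could be computed and no difference below has a replicate check. Intervals are exact binomial intervals of shares, exact Poisson intervals of rates and order-statistic intervals of medians, all at 95%. They cover counting error among peaks only, and peaks are not replicates. Read depth is unknown from these lists.

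PCGF1 is the subunit that defines the variant Polycomb repressive complex PRC1.1, which it forms with BCOR or its relative BCORL1, KDM2B and RING1A or RING1B. KDM2B carries a zinc finger that binds unmethylated CpG-rich DNA and brings the complex to CpG islands, and RING1B is the ligase that places ubiquitin on lysine 119 of histone H2A. H3K27me3 is written by a separate complex, PRC2, and in many cell types variant PRC1, PRC2 and H3K27me3 share a large set of CpG-rich promoters of silent developmental genes. PRC1.1 is also known to occupy CpG islands that carry little H3K27me3.

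The PCGF1 peaks on RING1B outside H3K27me3 were short and of narrow range in fold enrichment, the authors' ratio of ChIP signal over the peak caller's background. Their median width was 214.5 bp (204 to 225), with 50% of them between 127 and 395 bp. Peaks on both RING1B and H3K27me3 were wider, at a median of 378 bp (343 to 408), and those on H3K27me3 alone or on neither were shorter, at 172.5 bp and 157.5 bp. Only 39 of the 928, or 4.20% (3.005 to 5.70%), exceeded 1 kb, against 204 of 1007, or 20.3% (17.8 to 22.9%), of the peaks on both. A longer PCGF1 peak is likelier to touch another peak by 1 bp, so the rule itself can set part of these width differences. The shortest listed width, 49 bp, was reached by 26 sites. All 928 together covered 290152 bp.

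Fold enrichment of the 928 sites had a median of 4.76 (4.74 to 4.79) and ran from 1.84 to 6.95. A fold between 4 and 6 was listed for 885 sites, or 95.4%, with 36 below and 7 above. The median was 4.90 (4.87 to 4.93) on RING1B with H3K27me3, 4.79 on H3K27me3 alone and 4.65 (4.61 to 4.70) on neither. These medians differ by less than the range of folds within each class. The −log10 q, the authors' measure of how firmly a peak stands above background, had a median of 1.89, with 523 of 928 sites, or 56.4%, under 2 and a highest value of 13.98.

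**Figure D1:**
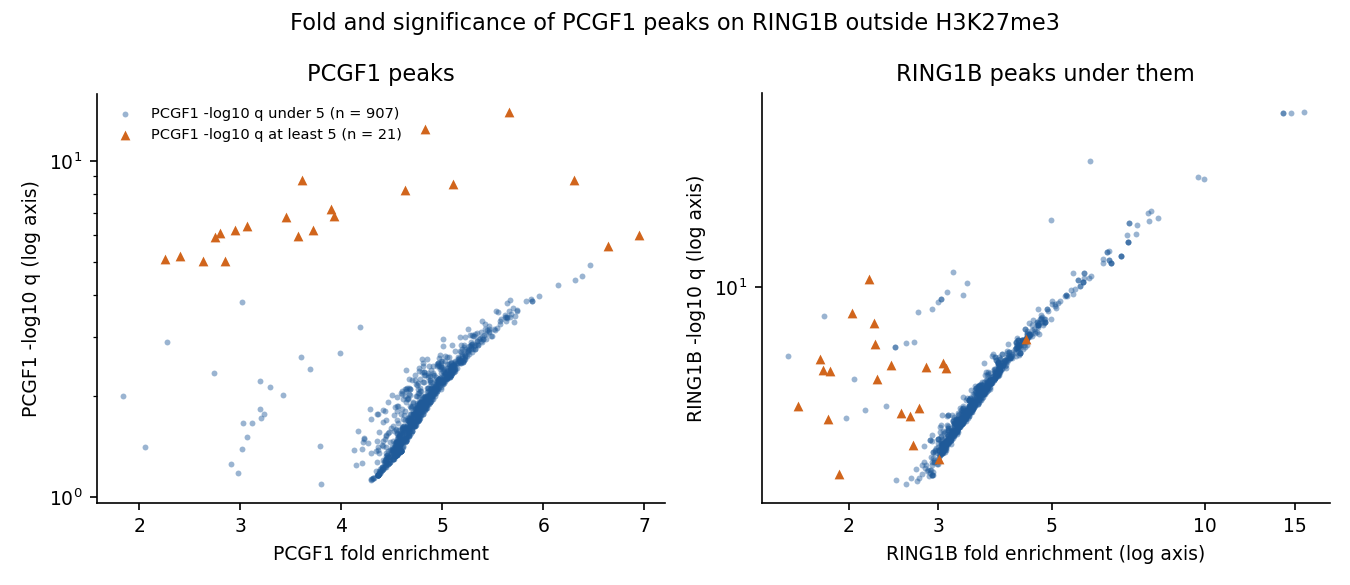
Fold enrichment (x axis) against −log10 q (y axis, log scale) for the 928 PCGF1 peaks on RING1B outside H3K27me3 (left) and for the RING1B peaks under them (right, both axes log). Each point is 1 PCGF1 peak, and triangles mark the 21 with a −log10 q of at least 5. Most points follow 1 curve in each panel, and the triangles lie above it, mainly at a PCGF1 fold under 4 and a RING1B fold under 3.

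The strongest single sites were spread over the genome. All positions are those of the mouse build mm9. The highest fold, 6.95, was listed on chromosome 3 at 37538764 to 37539542, a peak of 779 bp inside a RING1B peak of 7561 bp that also touches H3K27me3. The second, at 6.64, was also the widest of the 928, 2273 bp on chromosome 16 at 22437427 to 22439699. It spanned the whole of 2 RING1B peaks, of 246 and 513 bp, and shared 759 bp with them in all. Folds of 6.46, 6.38 and 6.31 followed on chromosome 4 at 53453619 to 53453965, chromosome 3 at 157229837 to 157230204 and chromosome 6 at 120616743 to 120617071. The next, at 6.30 on chromosome 3 at 120952739 to 120952861, was 123 bp wide and sat on a RING1B peak of 289 bp. Chromosome 12 held the remaining pair of the 8 highest, a 49-bp peak at 86452205 to 86452253 with a fold of 6.15 and a 215-bp peak at 55815313 to 55815527 with 5.96. After that on chromosome 16, the widest sites measured 2080 bp on chromosome 17 at 84584520 to 84586599 and 1657 bp on chromosome 10 at 94406304 to 94407960, with folds of 5.67 and 5.68. The first 3 of the sites of 49 bp by start position were on chromosome 17 at 4995475 to 4995523, chromosome 18 at 5592236 to 5592284 and chromosome 17 at 11033720 to 11033768, with folds of 4.62, 4.69 and 5.09. The 8 sites with the highest PCGF1 fold lay on RING1B peaks whose folds ran from 2.53 to 4.57. Most of these folds were below the median RING1B fold of 3.54 over all 928.

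The 928 sites fell in 764 RING1B peaks, most of which held 1 of them. A site that touched 2 RING1B peaks, as 2 sites did, was counted with the one it shared more bases with, which leaves 1 touched RING1B peak uncounted. A single site was found in 638 of these RING1B peaks (83.5%), 2 sites in 95, 3 in 24 and 4 in 7. The RING1B peaks were wider where they held more sites, with median widths of 1360 bp (1265 to 1521), 2155 bp, 3610 bp and 5820 bp. Of the 928 sites, 613 (66.1%, 62.9 to 69.1%) were the only PCGF1 peak in their RING1B peak, against 504 of the 1007 on both marks (50.05%, 46.9 to 53.2%). These totals were not matched on RING1B width, whose median per site was 1742 bp for the 928 and 4124 bp for the 1007. Up to 0.5 kb all sites of both sets were alone. The shares were 91.5% against 81.6% at 0.5 to 1 kb and 71.8% against 66.4% at 1 to 2 kb. At 2 to 5 kb the order was the opposite, 48.3% against 54.4%, and over 5 kb it was 38.5% against 29.6%. The 928 sites covered a median of 15.6% of the bases of the RING1B peak that held them. They thus took up a small part of it in most cases, although 750 (80.8%) lay wholly inside.

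Neighbouring sites in one RING1B peak were close together. The 164 neighbouring pairs of that kind were separated by a median of 313 bp and at most 2751 bp, and 119 of them by no more than 500 bp. The smallest gap between any neighbours was 197 bp. Whether peak calling set a least gap is not given in the sources used here. Neighbours in different RING1B peaks were far apart, at a median of 1459500 bp over 744 pairs. Sites in one RING1B peak cannot be farther apart than its width, so the grouping itself sets part of this contrast.

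The 7 RING1B peaks with 4 sites each show this arrangement. One on chromosome 16 at 23983470 to 23989543, with a RING1B fold of 3.93, held sites of 169, 427, 207 and 160 bp. Their PCGF1 folds were 4.74, 5.63, 4.37 and 4.55 in order along the chromosome. One on chromosome 13 at 53074160 to 53078417, with a RING1B fold of 4.37, held sites of 83, 283, 117 and 256 bp with folds of 4.36, 4.54, 4.59 and 4.64. In both peaks no site reached 500 bp, and the folds of 7 of these 8 sites lay below the median of the 928. The other 5 were on chromosome 2 at 56966648 to 56969708, chromosome 5 at 43621165 to 43626984, chromosome 7 at 37480911 to 37483498, chromosome 9 at 61215423 to 61221542 and chromosome 18 at 83077584 to 83084541. Those on chromosomes 5 and 9 also touched H3K27me3, with 24.5% and 24.8% of their bases.

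RING1B peaks that lay wholly outside H3K27me3 numbered 13906, and 628 of them held one or more of the PCGF1 sites, 4.52% (4.18 to 4.87%). Those 628 were wider than the 13278 without one, at a median of 1306 bp (1200 to 1406) against 575 bp (564 to 585). Their RING1B fold was also slightly higher, 3.40 (3.35 to 3.46) against 3.24 (3.23 to 3.25). The share with a PCGF1 site was 1.26% of RING1B peaks up to 0.5 kb, 3.45% at 0.5 to 1 kb and 8.89% at 1 to 2 kb. It reached 17.8% (15.4 to 20.5%) at 2 to 5 kb and was 10.5% (5.56 to 17.7%) among the 114 peaks over 5 kb.

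A wider peak offers more bases to be overlapped, so the number of sites was also taken per length of RING1B sequence. It was 40.2 sites per Mb (31.6 to 50.5) in RING1B peaks up to 0.5 kb, 50.4 at 0.5 to 1 kb and 75.9 at 1 to 2 kb. In peaks of 2 to 5 kb it was 95.4 per Mb (83.6 to 108), and over 5 kb it was 26.7 per Mb (17.0 to 40.1). Per length of RING1B sequence outside H3K27me3, the PCGF1 sites were therefore listed most densely in peaks of 2 to 5 kb, with an interval above those of the 3 classes of up to 0.5 kb, 0.5 to 1 kb and over 5 kb, and overlapping that of 1 to 2 kb, which ran from 67.1 to 85.6. Over 5 kb the rate rests on 23 sites. These intervals count sites that share a RING1B peak as independent and can therefore be too narrow. At 2 to 5 kb the 236 sites lay in 158 RING1B peaks.

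**Figure D2:**
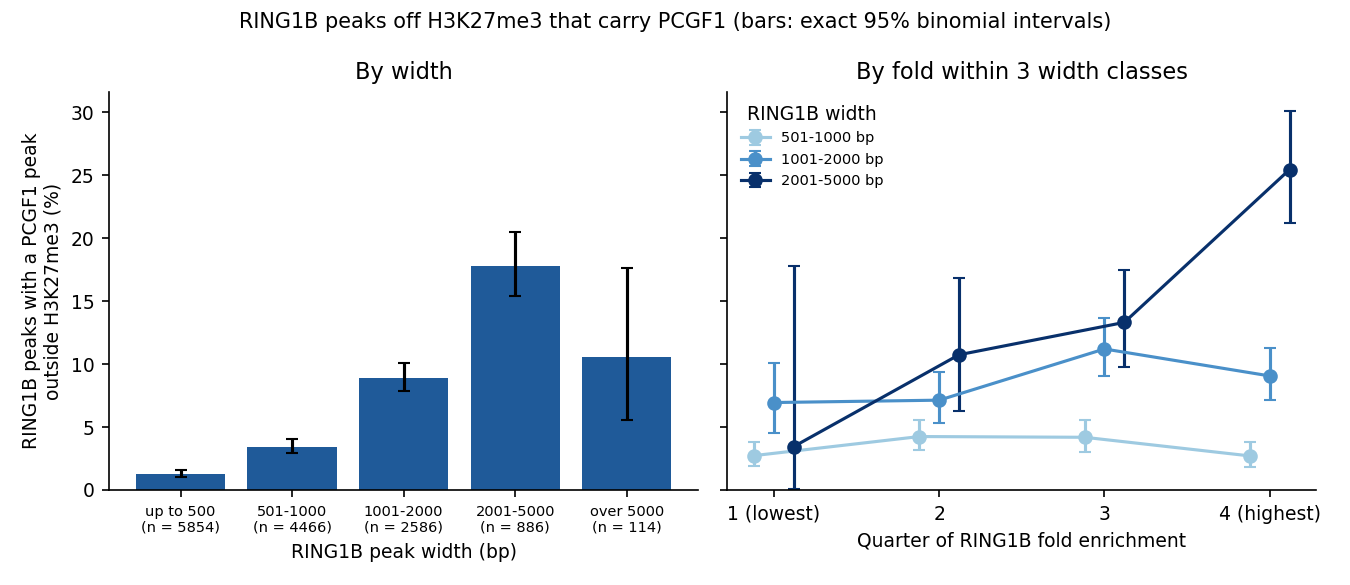
Share of RING1B peaks outside H3K27me3 that hold a PCGF1 peak outside H3K27me3 (y axis, %), by RING1B width in bp (left, bars) and by quartile of RING1B fold within 3 width classes (right, points joined by lines). Quartiles were cut over all 13906 RING1B peaks outside H3K27me3, not within a class. Error bars are exact 95% binomial intervals. The share climbs to 17.8% at 2 to 5 kb, and within that class from 3.45% to 25.5% across fold quartiles, while it has no such trend in the 0.5 to 1 kb class.

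RING1B fold and width went together across the 928 sites (Spearman rho 0.61, Pearson r 0.60), so fold was looked at within width classes. The quartiles of fold were cut over all 13906 RING1B peaks outside H3K27me3, so they hold unequal numbers within a class. Among RING1B peaks of 2 to 5 kb outside H3K27me3, the share with a PCGF1 site was 3.45% in the lowest quartile of RING1B fold, 10.7% and 13.3% in the middle quartiles and 25.5% (21.2 to 30.1%) in the highest. The lowest quartile held only 29 such peaks, with an interval of 0.0873 to 17.8%. Among those of 1 to 2 kb it was 6.94%, 7.13%, 11.2% and 9.06%, and among those of up to 0.5 kb 1.57%, 1.19%, 1.26% and 0.830%. At 0.5 to 1 kb it was 2.73%, 4.24%, 4.18% and 2.70%. Over 5 kb it was 10% and 9.88% in quartiles 3 and 4, and the lower quartiles held too few peaks to be given. In the 2 to 5 kb class the highest quartile lay above the interval of the quartile below it (9.80 to 17.5%), whereas the given intervals of neighbouring quartiles overlapped in every other class. Whether the relation to fold differs between width classes was not tested.

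PCGF1 fold and RING1B fold were only weakly related across the sites. Median PCGF1 fold was 4.73, 4.74, 4.79 and 4.78 across the 4 quartiles of RING1B fold, while the median RING1B fold went from 3.06 to 4.48. Across the 928 sites the rank correlation of the 2 folds was 0.10 (Pearson 0.15) and that of the 2 widths 0.07 (Pearson 0.03). These are descriptions over peaks that share libraries and, in part, a RING1B peak. PCGF1 fold moved with the width of the PCGF1 peak itself, with a rank correlation of 0.30 and a median of 4.95 (4.91 to 4.99) in the widest quartile against 4.69 (4.64 to 4.74) in the shortest.

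Among the 628 RING1B peaks outside H3K27me3 with a PCGF1 site, the 5 strongest by RING1B fold held 10 sites with PCGF1 folds of 4.23 to 5.74. The highest RING1B fold, 15.62, belonged to a peak of 8033 bp on chromosome 15 at 6651433 to 6659465, and its 1 PCGF1 site, at 6657437 to 6658030, had a fold of 5.08. The next were a RING1B peak of 998 bp on chromosome 7 at 13887876 to 13888873 with a fold of 7.31, and one of 2477 bp on chromosome 19 at 5844517 to 5846993 with 7.09. The first held 1 site, at 13888065 to 13888463 with a PCGF1 fold of 4.57, and the other held 2, with 4.23 at 5844810 to 5845125 and 4.47 at 5845422 to 5845478. A RING1B peak on chromosome 8 at 86520440 to 86522821 had a fold of 6.85 and held sites with PCGF1 folds of 4.52, 5.74 and 4.51. One on chromosome 10 at 26092748 to 26096575 had a fold of 6.54 and held sites with 4.71, 4.65 and 4.61.

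Most sites lay within a few kb of H3K27me3, though outside it by definition. The median distance to the nearest H3K27me3 region was 4238 bp (3918 to 4897), with 50% of the sites between 1664 and 9983 bp. Within 1 kb there were 153 sites (16.5%), within 5 kb 498 (53.7%, 50.4 to 56.9%), within 10 kb 697 (75.1%) and within 50 kb 919 (99.03%). H3K27me3 regions are numerous in this list, 135391 in all, so RING1B peaks outside H3K27me3 without a PCGF1 site give the level to read this against. Measured from the edges of the RING1B peak, 309 of the 628 with a site (49.2%, 45.2 to 53.2%) and 6556 of those 13278 (49.4%, 48.5 to 50.2%) lay within 5 kb. Within 10 kb the shares were 73.1% (69.4 to 76.5%) and 66.8% (66.0 to 67.6%).

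H3K27me3 on both sides was less frequent around PCGF1-bound RING1B peaks outside it than around the others. Of the 628 RING1B peaks with a site, 51 (8.12%, 6.11 to 10.5%) had H3K27me3 within 5 kb on both sides, against 2236 of 13278 (16.8%, 16.2 to 17.5%) without one. Within 10 kb on both sides the shares were 19.4% (16.4 to 22.7%) and 29.1% (28.3 to 29.9%). The nearest distance itself had overlapping intervals, with medians of 5143 bp (4169 to 5715) and 5140 bp (4947 to 5348). These 2 sets were not matched on RING1B width. Among RING1B peaks of 2 to 5 kb, those with a PCGF1 site lay farther out, at a median of 5736 bp (4157 to 6682) against 2951 bp (2454 to 3722). In the shorter classes the intervals overlapped, with medians of 3988 bp (2587 to 6478) against 5864 bp (5621 to 6139) up to 0.5 kb, 5384 against 4810 bp at 0.5 to 1 kb and 4334 against 4782 bp at 1 to 2 kb. At 2 to 5 kb, 18 of 158 with a site (11.4%, 6.89 to 17.4%) were within 1 kb of H3K27me3, against 193 of 728 without one (26.5%, 23.3 to 29.9%).

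The H3K27me3 regions nearest to the sites had a median width of 2100 bp (1980 to 2290) and a median height, the authors' highest signal in a region, of 71.8 (69.3 to 74.2), against 1840 bp and 68.5 over all regions. Those within 1 kb of a site were wider and taller, at 4540 bp (3270 to 5710) and 93.2 (87.4 to 102). The regions under PCGF1 peaks on both marks had medians of 19540 bp and 171.9. Counted per PCGF1 peak, the regions nearest to the 928 sites were thus narrower and lower than those under the 1007 on both marks. They were 756 and 671 distinct regions, so some count more than once and the intervals treat repeats as separate. A wide region is also likelier to lie under a peak, so the overlap itself favours wide regions.

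PCGF1 fold showed no trend with the distance to H3K27me3. From the nearest to the farthest quartile its medians were 4.77, 4.77, 4.73 and 4.78. PCGF1 width had a median of 259.5 bp (222 to 306) up to 1662 bp away and 182 bp (164 to 206) beyond 9991 bp. In the middle quartiles it was 207 and 223.5 bp, so the fall was not even. The 3 closest sites lay almost against a region, 6 bp away on chromosome 19 at 42222287 to 42222466, 7 bp on chromosome 12 at 113145535 to 113145583 and 31 bp on chromosome 10 at 128026962 to 128027562. The most remote was on chromosome 11 at 34495220 to 34495366, 109474 bp from the nearest region, with a PCGF1 fold of 3.20 and a RING1B fold of 5.94. Next came chromosome 16 at 92697946 to 92698055 (98405 bp), 2 sites in one RING1B peak on chromosome 18 at 80909151 to 80912457 (82642 and 82296 bp) and chromosome 14 at 79701044 to 79701275 (79633 bp). Apart from the first, these remote sites had PCGF1 folds of 4.56 to 4.88, close to the median of all 928.

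**Figure D3:**
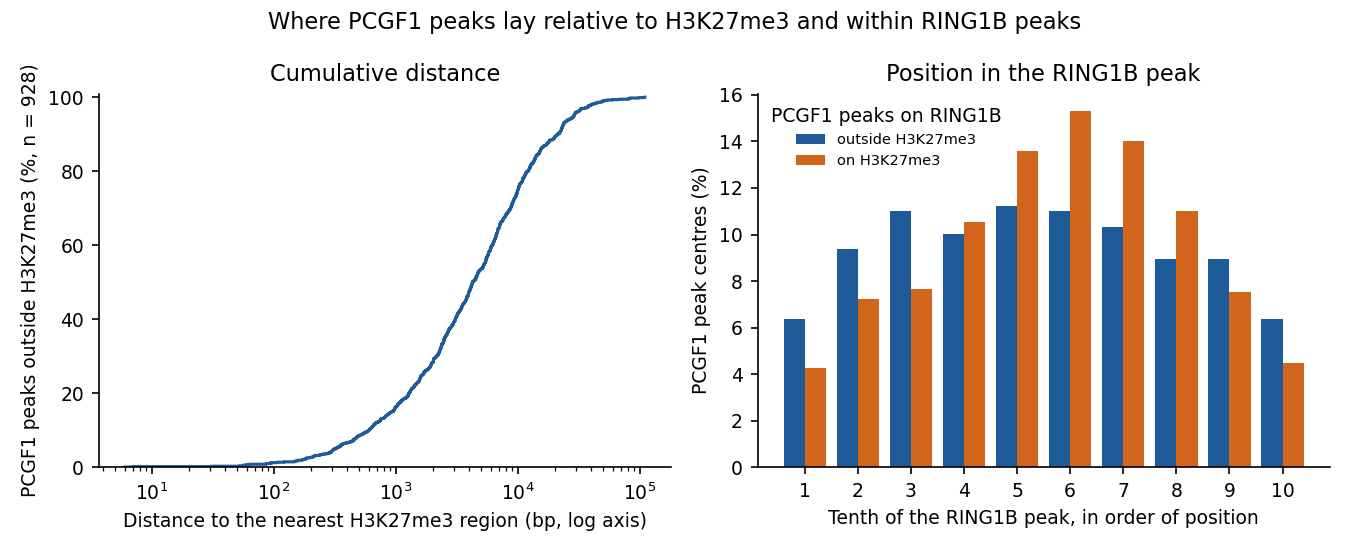
Left, cumulative share of the 928 PCGF1 peaks (y axis, %) by distance to the nearest H3K27me3 region (x axis, bp, log scale). Right, share of PCGF1 peak centres (y axis, %) in each of 10 equal segments of the RING1B peak, from its lower to its upper coordinate, for peaks outside H3K27me3 and on it; 53.7% of the former lie within 5 kb of H3K27me3, and their positions are flatter across the RING1B peak.

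Over all RING1B widths PCGF1 lay less centrally outside H3K27me3 than on it, but not within every width class. The central 50% of the RING1B peak held the centres of 486 of 928 sites (52.4%, 49.1 to 55.6%), against 632 of 1007 on both marks (62.8%, 59.7 to 65.8%). The median offset from the RING1B centre, where 0% is the centre and 100% the edge, was 47.02% (43.6 to 51.3%) against 37.0% (34.0 to 39.6%). By RING1B width the share of the 928 in the central 50% was 44.0% (32.6 to 55.9%) up to 0.5 kb, against 69.0% (55.5 to 80.5%) of the peaks on both marks. At 0.5 to 1 kb it was 46.3% against 50%, with overlapping intervals. At 1 to 2 kb the order was the opposite, 60.2% (54.3 to 66.0%) against 50% (41.0 to 59.0%), again with overlapping intervals. At 2 to 5 kb it was 59.4% (53.5 to 65.1%) against 63.9% (58.4 to 69.2%). Over 5 kb it was 29.9% (21.8 to 39.1%) of 117 sites, against 67.1% (62.5 to 71.6%) of 429. Of those 117 sites, 94 lay in RING1B peaks that touch H3K27me3 elsewhere, where the rule leaves only the part outside the mark.

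RING1B peaks that also touch H3K27me3 made up 136 of the 764 and held 167 of the 928 sites (18.0%, 15.6 to 20.6%), and a median of 42.8% of their bases lay on H3K27me3. Of the 136, 26 also held a PCGF1 peak on H3K27me3. Sites in them lay a median of 855 bp (647 to 1028) from H3K27me3, against 5915 bp (5457 to 6508) for the other 761, a difference that the split itself sets, since the RING1B peak reaches the mark. Counted per site, their RING1B peaks were wider, at a median of 5784 bp against 1470 bp, and of higher RING1B fold, 3.97 (3.82 to 4.14) against 3.45 (3.41 to 3.50). Site centres lay in the central 50% in 37.1% (29.8 to 44.9%) against 55.7% (52.1 to 59.3%). A wider RING1B peak is likelier to touch H3K27me3, and the rule leaves only its part outside the mark. The split itself can therefore set part of these differences in width, fold and position. The PCGF1 peaks themselves had overlapping intervals in both, with median folds of 4.75 (4.69 to 4.79) and 4.77 (4.74 to 4.79) and widths of 229 bp (203 to 278) and 210 bp (196 to 222).

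**Figure D4:**
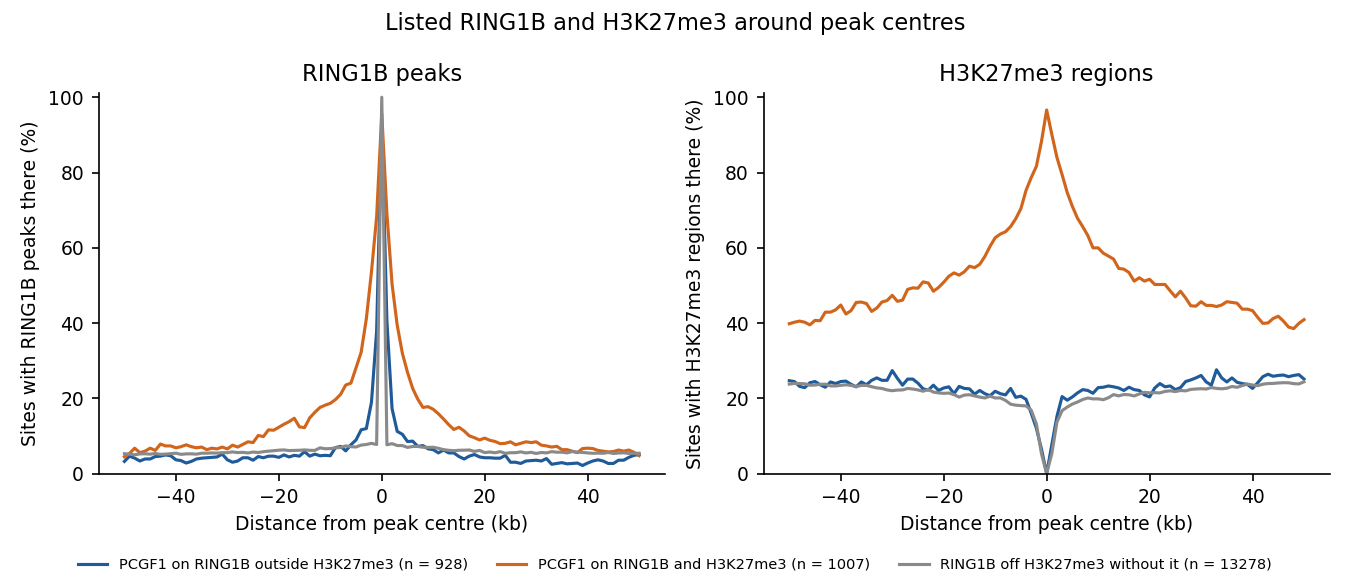
Share of sites (y axis, %) with a listed RING1B peak (left) or H3K27me3 region (right) at each kb up to 50 kb from the centre (x axis), for the 928 PCGF1 peaks outside H3K27me3, the 1007 on both marks and the 13278 RING1B peaks outside H3K27me3 without one. The values at 0 are set by how the sets were chosen, and the choice of the 1007 on H3K27me3 can also raise their values in the flanks. From 10 to 50 kb H3K27me3 averages 23.8% around the 928, 22.4% around the 13278 and 47.3% around the 1007.

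From 10 to 50 kb away, H3K27me3 was found around the 928 sites about as often as around other RING1B peaks outside the mark, and RING1B somewhat less often. Averaged over those distances, H3K27me3 was at 23.8% and 22.4% and RING1B at 4.05% and 5.70%. At 1 kb from the centre, 39.1% of sites still had RING1B, against 68.6% of peaks on both marks and 7.69% around RING1B peaks without PCGF1, which are shorter. At 10 kb the shares were 5.55%, 17.9% and 6.82%. H3K27me3 was found at 10 kb from 22.4% of the 928, 61.3% of the 1007 and 19.98% of the 13278, and at 50 kb from 24.9%, 40.4% and 24.1%. The dip of H3K27me3 at the centre follows from the choice of sites. In H3K27me3 at 10 and 50 kb, the 928 were closer to RING1B peaks without PCGF1 than to peaks on both marks. The 1007 were chosen for lying on H3K27me3, in regions of a median 19540 bp, whereas both other sets were chosen off it. Their higher shares in the flanks can therefore follow from that choice.

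Across chromosomes the sites were uneven. Chromosome 19 held 87 of the 928 (9.38%), or 14.9 per 10 Mb of the span covered by the lists, against 3.49 per 10 Mb on the other autosomes apart from chromosome 8. PCGF1 peaks of all kinds were also denser there, at 31.2 against 9.76 per 10 Mb, and the share of them on RING1B outside H3K27me3 was 47.8% (40.4 to 55.3%) against 35.7%. On chromosome 19, 61 of 502 RING1B peaks outside H3K27me3 held a site (12.2%, 9.42 to 15.3%), and the 87 sites were spread over 71 RING1B peaks in 36 windows of 1 Mb. On chromosome 8 the share was 46 of 543 (8.47%, 6.27 to 11.1%). On the remaining autosomes it was 4.13% (3.79 to 4.49%), from 2.60% on chromosome 13 to 6.48% on chromosome 14. On X 1 of 256 RING1B peaks outside H3K27me3 held a site (0.391%, 0.00989 to 2.16%), a 61-bp peak at 31635685 to 31635745 with a −log10 q of 8.20.

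**Figure D5:**
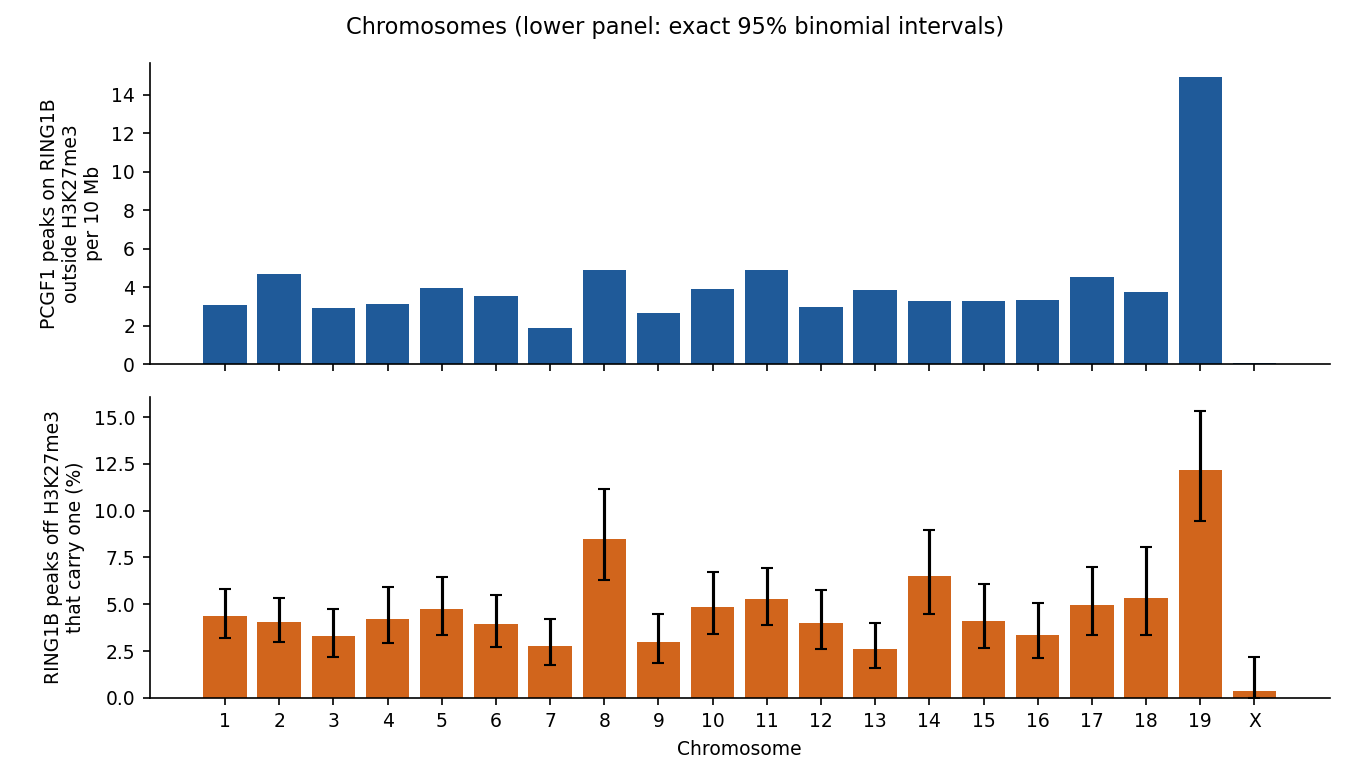
PCGF1 peaks on RING1B outside H3K27me3 per 10 Mb of listed span (upper panel, y axis) and share of RING1B peaks outside H3K27me3 that hold one (lower panel, y axis, %, with exact 95% binomial intervals), by chromosome (x axis). Chromosome 19 stands highest in both, at 14.9 per 10 Mb and 12.2%, and X lowest.

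On chromosome 8 the sites gathered in places. Within 123000001 to 124000000 there were 9 sites in 4 RING1B peaks. The RING1B peak at 123010874 to 123014540, with a fold of 4.05, held sites of 623, 398 and 61 bp with PCGF1 folds of 5.02, 4.69 and 4.62. Another at 123059747 to 123063471, with a RING1B fold of 3.45, held sites of 489, 631 and 152 bp with folds of 5.04, 4.53 and 4.71. Their PCGF1 folds lay on both sides of the median of the 928.

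On chromosome 6, 12 sites lay in a block with evenly spaced RING1B peaks on both sides of a stretch without any. Between 47601643 and 47728260, over 126.6 kb, these sites fell in 11 RING1B peaks and were all the PCGF1 peaks there. Their PCGF1 folds were 3.99, 3.29, 3.21, 2.98, 3.02, 3.07, 3.42, 3.24, 2.91, 3.20, 3.12 and 3.02 in order, each under 4. They make up 12 of the 36 sites of the 928 with a fold that low. The block held 19 RING1B peaks, with folds of 2.02 to 4.98 and a median width of 1314 bp. The centres of neighbouring RING1B peaks were a median of 4363 bp apart, and 14 of the 18 distances lay between 3500 and 5000 bp, whereas RING1B peaks elsewhere on chromosome 6 were a median of 11897.5 bp apart. It also held 11 H3K27me3 regions with a median height of 119.3. A stretch of 52.9 kb in the block had no RING1B peak, and the other 17 distances ran from 2356 to 5846 bp. Whether the block is repeated sequence, in which read placement and copy number can alter a fold, was not tested.

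Most of the sites with a −log10 q of at least 5 had a low fold and lay on short RING1B peaks of low fold. Such a value was listed for 21 of the 928 (2.26%, 1.41 to 3.44%). It was also listed for 64 of all 2569 PCGF1 peaks (2.49%) and 35 of the 1007 on both marks (3.48%), so the share in the 928 was near that of the whole list. Whether such peaks in the other classes had a like fold and like RING1B peaks was not tested. The 21 sites had a median fold of 3.61, and 14 of the 21 were under 4. Their RING1B peaks had a median width of 319 bp and fold of 2.27, and 17 of 21 had a RING1B fold under 3, against 62 of the other 907 (6.84%). The −log10 q of those RING1B peaks was not lower, at a median of 4.23 (2.72 to 4.73) against 3.29 (3.11 to 3.38) over all 928. All but 1 of the 21 were alone in their RING1B peak. The highest −log10 q, 13.98, was on chromosome 2 at 20821493 to 20821822, with a PCGF1 fold of 5.66 and a RING1B fold of 2.42. The next, 12.43, was on chromosome 8 at 15519787 to 15520112, with a PCGF1 fold of 4.83 and a RING1B fold of 1.82. Then came the site of fold 6.30 on chromosome 3, at 8.80, chromosome 14 at 57312850 to 57312900, at 8.78 with a fold of 3.61, and chromosome 9 at 105721666 to 105721859, at 8.52 with a fold of 5.11. Of these 5 highest, 4 had a fold above the median of the 928. These 21 and the block of chromosome 6 together hold 26 of the 36 sites with a fold under 4.

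The edges of the rule matter for some sites. The smallest overlaps with RING1B that counted were 1, 2 and 3 bp, on chromosome 1 at 135975410 to 135975536, chromosome 18 at 24113365 to 24113584 and chromosome 1 at 157405300 to 157405653. The nearest PCGF1 peaks that failed it for want of RING1B lay 0, 1 and 1 bp from a RING1B peak, on chromosomes 17, 3 and 8. Those with RING1B that failed by the smallest overlap with H3K27me3 shared 1, 3 and 15 bp with it, on chromosomes 3, 17 and 6. Among the 928, 64 (6.90%) had less than 50% of their bases on RING1B and 12 lay less than 100 bp from H3K27me3. Outside the rule, 45 of the 346 on neither (13.0%) lay less than 100 bp from a RING1B peak, and 175 (50.6%) less than 1000 bp. Of the 1007 on both marks, 34 (3.38%) had less than 50% of their bases on H3K27me3. The PCGF1 folds just inside and just outside the RING1B border covered a like range, at 4.44 to 4.56 for the smallest overlaps with RING1B and 4.49 to 4.57 for the nearest misses.

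Genes and sequences are not given for these sites. The gene and promoter tables used with this work belong to the build GRCm38.p6, positions were not converted between builds, and which of the sites lie at promoters or CpG islands was not analysed here.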

How the data were processed

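FLAG, RING1B and H3K27me3 ChIP-seq peak lists of IdHP cells were analysed; the other 38 of 44 libraries were not used here. Bowtie2, SAMtools 1.6.0 and Picard and the builds mm9 and dm3 are named in the submitters' processing notes without roles, and mm9 is taken as the build of the mouse positions. How peaks were called, on which control and with what threshold or pooling, is not given in the sources used here. The PCGF1 and RING1B lists, deposited in broadPeak layout, hold the authors' fold enrichment (a ratio) and −log10 q-value, and a score that repeats the latter. Per the file headers, the deposited H3K27me3 list holds a height and a total signal of unstated scale (lowest height 40, positions in steps of 10 bp) and a log p-value.

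Overlap needed 1 bp, and distances count bases between peaks. Sites named were the 8 of highest fold, 5 of highest −log10 q, 5 with the highest RING1B fold outside H3K27me3, the RING1B peaks with most sites, 3 nearest to and 5 farthest from H3K27me3, the widest and shortest, and 3 on each side of the rule's edges; the dense windows and the −log10 q limit of 5 were chosen after their values were seen. Sites and lists were chosen with earlier results of these data known. Routines were tested on simulated data. Python 3.11.15, pandas 2.3.3, NumPy 2.4.6, SciPy 1.17.1 and matplotlib 3.10.9 were used. Alternatives changed the overlap, the margin to H3K27me3, the strength of peaks in each list and the chromosomes used.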

Additional observations from a re-analysis of the deposited data

How the results depend on the processing

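The 7 summary values were recomputed under 10 other settings, 70 values in all, and 49 stayed inside the interval of the reported value. RING1B width is here the median over the RING1B peaks that hold sites, not the median per site. Its value was 1574 bp (1426 to 1673) for the 764 such peaks of the main setting. Leaving out chromosome 8, the sites of −log10 q at least 5, or the block of chromosome 6 moved none of the 7. Chromosome 19, where the sites were densest, was not left out. The settings without the sites of −log10 q at least 5 and without the block were chosen after seeing the data. So was the demand that the whole RING1B peak be off H3K27me3. The share of PCGF1 peaks was 33.6% with 50% of the peak on RING1B, 30.2% with 1 kb clear of H3K27me3, 32.8% with the stronger 50% of PCGF1 peaks, 28.3% with the stronger 50% of RING1B peaks, 13.7% (43 sites) with −log10 q of at least 3 in both lists and 29.6% with the whole RING1B peak off H3K27me3. The share within 5 kb of H3K27me3 was 44.5% with 1 kb clear, 36.8% with the taller 50% of H3K27me3 regions and 43.9% with the whole RING1B peak off. With the stronger 50% of PCGF1 peaks, median width was 321 bp, fold 5.01 and the share alone 82.9%. With the stronger 50% of RING1B peaks, the share alone was 62.5% and RING1B width 1839 bp. With −log10 q of at least 3, width was 330 bp, fold 5.44, the share alone 100%, RING1B width 1786 bp and offset 29.8%. With the whole RING1B peak off, RING1B width was 1306 bp and offset 43.4%. Settings that only tighten the rule must lower the share of PCGF1 peaks. The margin of 1 kb drops only sites within 1 kb of H3K27me3, so it must lower the share within 5 kb. Fewer PCGF1 peaks also leave fewer neighbours, which can raise the share alone. The cause of the remaining shifts was not tested. No paired analysis was possible because each list covers both libraries of its group and holds no value per library; no test was run. Settings that need transcription starts or CpG content were not run, since no mm9 genome was used here. Single libraries could not be left out, and depth, unknown here, limits how many weak sites were listed.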
